A study of Vitis vinifera with 6 samples.

Results

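Transcript levels of the phenylalanine ammonia-lyase (PAL) family were examined in fully expanded leaves of grapevine (Vitis vinifera, cultivar Syrah). The family is represented here by the 10 locus names listed for it, of which 7 form a cluster on chromosome 16 and 1 each lies on chromosomes 6, 8 and 13, as read from the locus names. Each locus had 1 probe among the 34369 probes other than controls, and all 10 were well above background on all 6 arrays. The locus names are in the scanner files, while their assignment to PAL comes from the list and is not written in the files. Leaves of transgenic plants labelled CARPO overexpression, where CARPO is a plant transcription factor of the NAC family, were compared with leaves of control plants, with 3 arrays per group. All plants were Syrah of 1 clone, regenerated from anther calli and grown in a greenhouse. The promoter of the transgene, and whether the 3 transgenic samples came from 1 line or several, are not given in the sources used here. One dye was used, and each array carried the RNA of 1 leaf sample.

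PAL removes ammonia from phenylalanine to give cinnamic acid, the step by which carbon leaves primary metabolism for the phenylpropanoids. Cinnamate 4-hydroxylase and 4-coumarate CoA ligase carry out the next steps. The pathway then branches to lignin, to the flavonoids through chalcone synthase, and in grapevine to the stilbenes, which are defence compounds such as resveratrol, through stilbene synthase. PAL genes are known to respond to wounding, pathogens and light.

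Signals are given as log2 of the processed spot intensity minus log2 of the 75th percentile of the same array, so that 0 is the level of that percentile. The 75th percentile was between 668 and 1234 intensity units in the arrays labelled overexpression and between 818 and 1036 in the controls. VIT_08s0007g07670 is taken as the CARPO locus from background knowledge of grapevine gene names, and the files do not name it as such, so as a check of the labels it is uncertain. Its probe had levels of -6.04, -6.35 and -1.77 in labelled overexpression replicates 1, 2 and 3, against -6.20, -4.02 and -5.35 in control replicates 1, 2 and 3. That probe was above all 3 controls in labelled overexpression replicate 3 alone. It was dim, with 10.1 and 15.1 intensity units in labelled overexpression replicates 1 and 2 and 12.4 to 50.4 in the controls. Its lowest ratio to local background was 1.94, and whether it reads the transgene was not examined. The groups are called by their labels throughout. Labelled overexpression replicate 3 also stood apart across 18929 bright probes, with Pearson's r of 0.810 to 0.854 with the other 5 arrays, against 0.883 to 0.974 for all pairs without it. It was alone on its slide and in its scan (scan 3), and 2103 of its spots were marked as outliers by the extraction software, against 15 to 607 on the other arrays. Scan 1 held labelled overexpression replicate 1 and control replicate 1, and scan 2 held labelled overexpression replicate 2 and control replicates 2 and 3. Slide, scan and leaf cannot be told apart for labelled overexpression replicate 3. In whole leaves, fewer cells that express a gene and less RNA per cell cannot be told apart either.

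The PAL probes did not move as a group with the label. The highest signal of all 6 arrays was that of labelled overexpression replicate 3 at 9 of the 10 loci, up to 71.2-fold above the control mean. Labelled overexpression replicates 1 and 2 lay below all 3 controls at 7 of the 10, with log2 differences of -2.14 to -1.18 between their mean and that of the controls. The log2 difference between the groups ran from -1.84 to 2.12 over the family, and no PAL probe (0 of 10) passed an adjusted p of 0.05 in limma. Over all probes tested, 0.08% passed. At an unadjusted p under 0.05, 2 of the 10 PAL probes were lower in the arrays labelled overexpression and 0 were higher, where 9.21% of all tested probes were lower at that threshold. Of these 2, VIT_16s0039g01360 was fitted without its spot in labelled overexpression replicate 3, which was marked as an outlier and the highest of its 6. With marked spots kept, 1 PAL probe was under that threshold. The median log2 difference was 0.02 over the 10 PAL probes and 0.0038 over the 23752 probes tested.

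**Figure D1:**
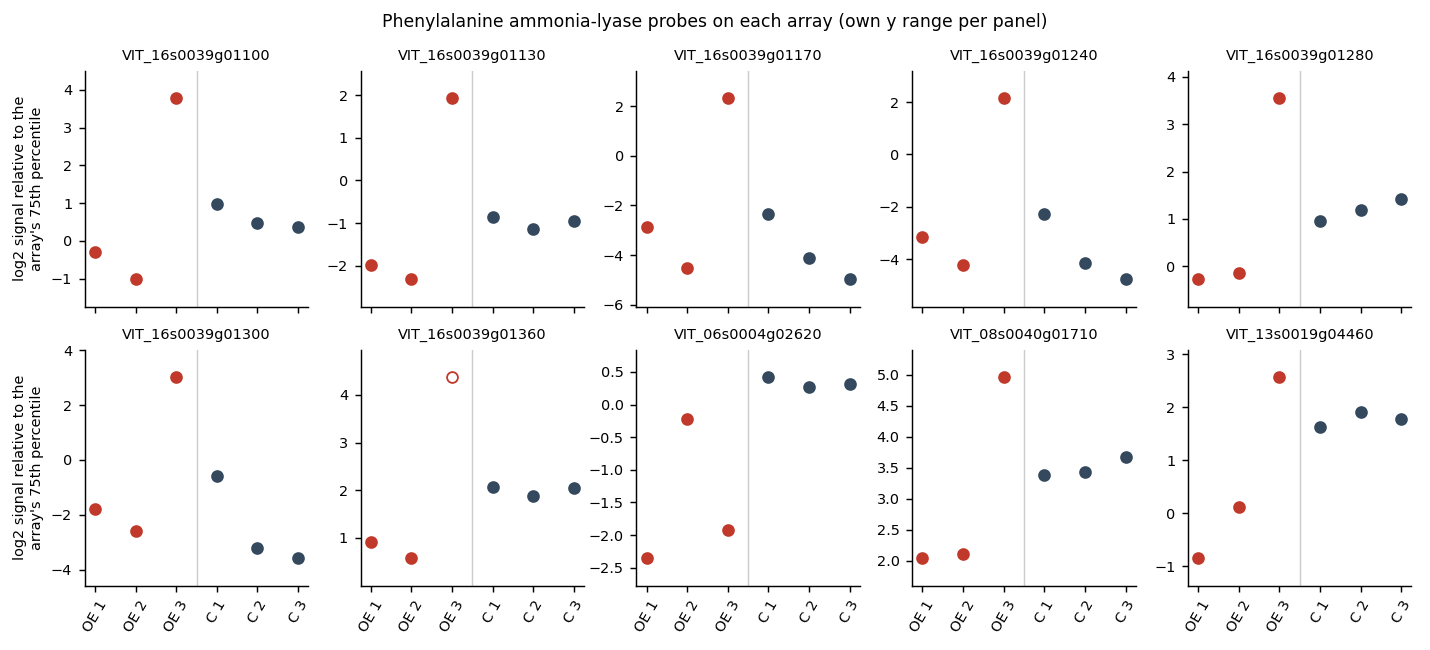
Log2 signal of each PAL probe relative to the 75th percentile of the array (y axis, with its own range in each panel), for labelled overexpression replicates 1 to 3 (OE, red) and control replicates 1 to 3 (C, dark), 1 point per array. Labelled overexpression 3 is the highest point in 9 of 10 panels, VIT_06s0004g02620 being the exception, and the open point for VIT_16s0039g01360 is a spot marked as an outlier and left out of the fit.

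Of the chromosome 16 cluster, 4 loci had labelled overexpression replicates 1 and 2 below all controls and replicate 3 above them. The probe of VIT_16s0039g01100 had levels of -0.31, -1.02 and 3.79 in labelled overexpression replicates 1, 2 and 3, against 0.98, 0.46 and 0.36 in control replicates 1, 2 and 3. For VIT_16s0039g01130 these were -1.98, -2.32 and 1.94 in the arrays labelled overexpression, against -0.85, -1.13 and -0.94 in the controls. At both loci the controls lay between labelled overexpression replicates 1 and 2, which were lower, and replicate 3, which was higher. VIT_16s0039g01280 had levels of -0.28, -0.15 and 3.56 in the arrays labelled overexpression, against 0.95, 1.18 and 1.42 in the controls. VIT_16s0039g01360 had levels of 0.92, 0.57 and 4.38 in the arrays labelled overexpression, against 2.07, 1.89 and 2.04 in the controls, and its spot in labelled overexpression replicate 3 was marked as an outlier and not used in the fit. The control arrays differed little at these 4 probes, with SDs between 0.10 for VIT_16s0039g01360 and 0.33 for VIT_16s0039g01100 (n = 3). At these 4 loci the signal of labelled overexpression replicate 3 was 5.20-fold to 9.10-fold above the control mean, the 5.20-fold of VIT_16s0039g01360 coming from the marked spot.

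The loci on chromosomes 8 and 13 had the same pattern. VIT_08s0040g01710 had levels of 2.04, 2.10 and 4.97 in labelled overexpression replicates 1, 2 and 3, against 3.38, 3.42 and 3.68 in control replicates 1, 2 and 3. VIT_13s0019g04460 had levels of -0.85, 0.12 and 2.57 in the arrays labelled overexpression, against 1.62, 1.91 and 1.79 in the controls. In both, labelled overexpression replicates 1 and 2 were lowest and replicate 3 highest, but replicate 3 was nearer to the controls at VIT_13s0019g04460, where it was 1.74-fold above the control mean, than at VIT_08s0040g01710, where it was 2.77-fold above. With all 6 arrays, the log2 difference was -1.16 (SE 0.84, limma adjusted p 0.563) for VIT_13s0019g04460 and -0.46 (SE 0.80, limma adjusted p 0.815) for VIT_08s0040g01710, and neither passed. Without labelled overexpression replicate 3, it was -2.14 (SE 0.33, limma adjusted p 0.0746) for VIT_13s0019g04460 and -1.43 (SE 0.20, limma adjusted p 0.0678) for VIT_08s0040g01710, and again neither passed.

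The remaining 3 loci of the cluster had signals below the 75th percentile in all arrays except labelled overexpression replicate 3, and varied among the controls. VIT_16s0039g01170 had levels of -2.88, -4.54 and 2.34 in labelled overexpression replicates 1, 2 and 3, against -2.35, -4.12 and -4.98 in control replicates 1, 2 and 3. VIT_16s0039g01240 had levels of -3.16, -4.24 and 2.16 in the arrays labelled overexpression, against -2.29, -4.15 and -4.77 in the controls. VIT_16s0039g01300 had levels of -1.78, -2.61 and 3.03 in the arrays labelled overexpression, against -0.58, -3.20 and -3.59 in the controls. Labelled overexpression replicate 3 was 71.2-fold, 59.6-fold and 44.7-fold above the control mean at these loci in turn, while replicates 1 and 2 lay within the control range. Control replicate 1 exceeded the mean of control replicates 2 and 3 at all 3 loci, by 4.61-fold at VIT_16s0039g01170, 4.50-fold at VIT_16s0039g01240 and 7.05-fold at VIT_16s0039g01300. Labelled overexpression replicate 1, read in the same scan as control replicate 1, exceeded replicate 2 by 3.17-fold, 2.11-fold and 1.78-fold. Whether the scan had a part in this was not tested. Within scan 1, labelled overexpression minus control was -0.53 for VIT_16s0039g01170, -0.87 for VIT_16s0039g01240 and -1.20 for VIT_16s0039g01300. Within scan 2 it was 0.01, 0.23 and 0.79 for the same loci, so that the sign differed between the scans. PAL genes of the cluster are close copies in sequence, and which copy a probe reads was not examined, so the values of single loci in the cluster are uncertain.

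VIT_06s0004g02620 on chromosome 6 was the one PAL locus at which labelled overexpression replicate 3 was not highest. It had levels of -2.36, -0.23 and -1.92 in labelled overexpression replicates 1, 2 and 3, against 0.42, 0.27 and 0.31 in control replicates 1, 2 and 3. The groups did not overlap, and the controls were close to each other (SD 0.08, n = 3). Labelled overexpression replicates 1 and 3 were far below the controls and replicate 2 slightly below them. The log2 difference was -1.84 (SE 0.56, limma adjusted p 0.217). Within scans it was -2.78 in scan 1 and -0.52 in scan 2. Without labelled overexpression replicate 2, the one nearest to the controls, the difference was -2.47 (SE 0.26) and passed, with a limma adjusted p of 0.0438. In that fit 0.396% of probes passed in that direction. The difference was -1.41 (SE 0.54, limma adjusted p 0.368) without replicate 1 and -1.62 (SE 0.62, limma adjusted p 0.246) without replicate 3, and neither passed. Of the 9 PAL probes with 6 usable spots, that of VIT_06s0004g02620 was the 1 whose groups did not overlap with the arrays labelled overexpression lower, against 13.7% of 21507 probes.

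Most of the differences between the groups depended on labelled overexpression replicate 3, and the comparison was repeated without that array. The exceptions were VIT_06s0004g02620, at -1.84 with that array and -1.62 without, and VIT_16s0039g01360, whose fit did not use its spot there. With all arrays, the smallest adjusted p of the family was 0.145 (VIT_16s0039g01360, log2 difference -1.25, SE 0.25, limma, with 2 usable spots in the arrays labelled overexpression). With the marked spot of that probe kept, its difference was -0.042 (SE 0.99, limma adjusted p 0.988). The log2 difference of VIT_16s0039g01170 was 2.12 (SE 1.79, limma adjusted p 0.615), that of VIT_16s0039g01240 1.99 (SE 1.71, limma adjusted p 0.620), and VIT_16s0039g01300 was close to these (SE 1.62, limma adjusted p 0.600). The differences of VIT_16s0039g01100, VIT_16s0039g01130 and VIT_16s0039g01280 were 0.22, 0.19 and -0.14, with SEs of 1.23, 1.12 and 1.04. The errors of these last 6 loci were all above the median SE of 0.34 over all tested probes. Without labelled overexpression replicate 3, the 7 loci low in replicates 1 and 2 had log2 differences of -2.14 to -1.18, and none of the 10 PAL probes (0) passed an adjusted p of 0.05 in limma, against 0.415% of all probes. At an unadjusted p under 0.05 they were lower at 7 of 10 loci, where 11.1% of all probes were, and at an adjusted p under 0.1 at 5 of 10, where 2.7% of all probes were. VIT_16s0039g01280 was 2.63-fold lower (limma adjusted p 0.0752) and VIT_16s0039g01100 2.41-fold lower (limma adjusted p 0.135) in labelled overexpression replicates 1 and 2 than in the controls. Within scan 1 these 7 loci had differences of -2.78 to -1.13, and within scan 2 of -1.73 to -0.52. The negative signs in both scans follow from the choice of the 7, as loci with replicates 1 and 2 below all controls.

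**Figure D2:**
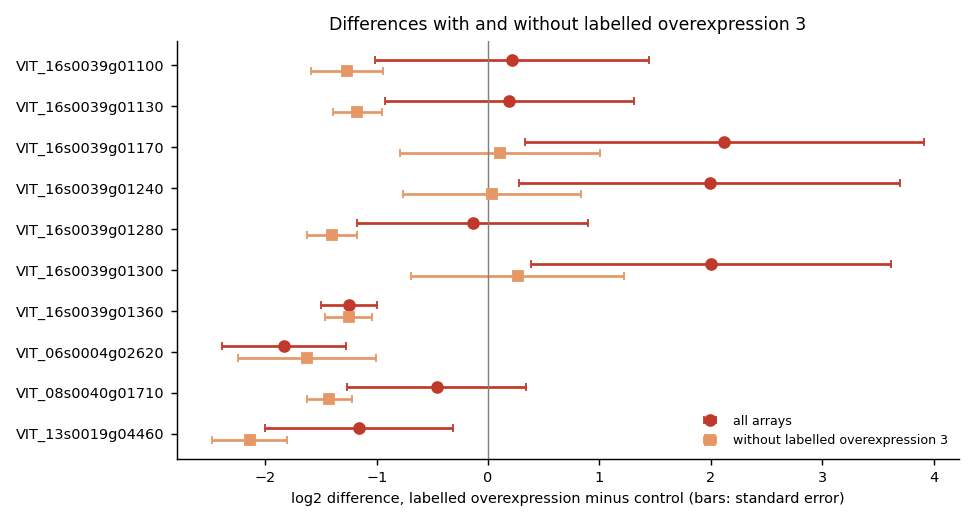
Log2 difference of each PAL probe, labelled overexpression minus control (x axis), with the standard error of the limma fit as bars, for all arrays (red circles) and without labelled overexpression replicate 3 (orange squares). Without that array VIT_16s0039g01100 moves from 0.22 to -1.27 and VIT_16s0039g01170 from 2.12 to 0.11, and most bars shorten.

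The order of the arrays, chosen for description after the values were seen, was set beside that of all probes. Labelled overexpression replicate 3 was the highest array at 8 of the 9 PAL probes with 6 usable spots, against 29.1% of 21507 probes, and was over 2-fold above every other array at 7 of the 9, against 8.54%. Replicates 1 and 2 lay below all controls at 7 of the 10, against 20.1% of 23235 probes. Both held together at 5 of the 9 PAL probes with 6 usable spots, against 3.67%. The loci were read on the same arrays, so these are not counts of independent observations. The share of all probes at least as far above the control mean in labelled overexpression replicate 3 ran from 0.344% for VIT_16s0039g01170 to 22.8% for VIT_13s0019g04460, and was 94.5% for VIT_06s0004g02620. The share at least as far below it in replicates 1 and 2 ran from 2.11% for VIT_13s0019g04460 to 7.61% for VIT_16s0039g01130 over the 7 loci low in both, and was 50.2% to 69.4% for the other 3. The members were chosen with results known, and no test of the family as a whole was made.

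**Figure D3:**
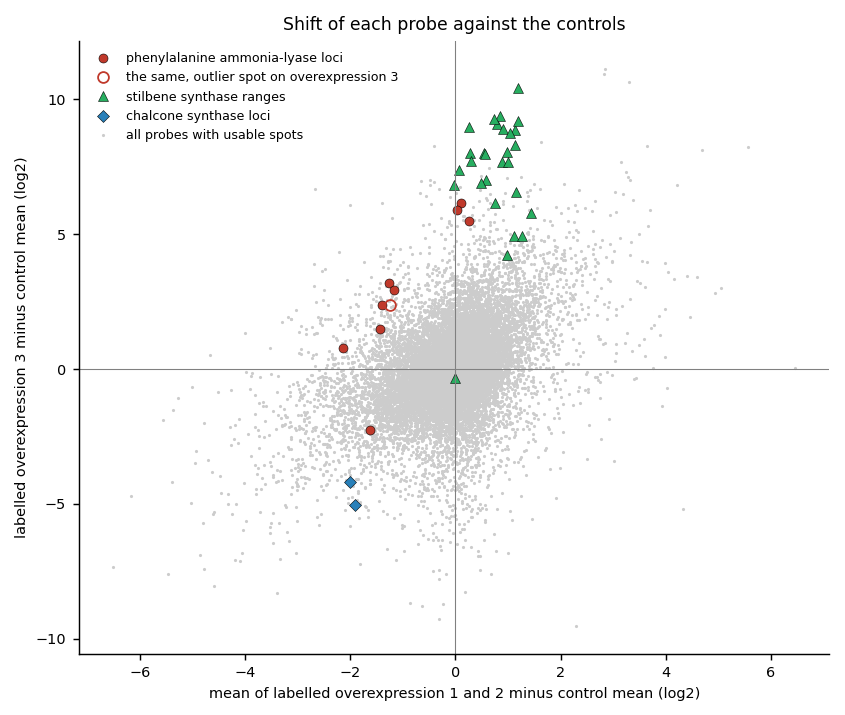
Shift of each probe against the control mean on the log2 scale, in labelled overexpression replicates 1 and 2 (mean, x axis) and in replicate 3 (y axis), for the PAL loci (red, the open circle being the outlier spot of VIT_16s0039g01360), the stilbene synthase ranges (green triangles), the chalcone synthase loci (blue diamonds) and all probes with 6 usable spots (grey). Apart from VIT_06s0004g02620, PAL points lie above 0 on the y axis, and 7 lie left of -1 on the x axis.

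The processed table deposited with the scanner files gave another picture for this family. All 10 PAL probes were in it. For the other 5 arrays, the table held each of the 10 scanner signals times 1 factor per array, to within 0.1%. For labelled overexpression replicate 3 this was so at 0 of 10, and all 10 values were instead within 0.1% of a scaled mean of the scanner signals of labelled overexpression replicates 1 and 2. A scaled mean of that kind matched the column at 99.961% of all 23065 probes, so this was not particular to PAL. Brought to the same 75th percentile, VIT_16s0039g01100 had an intensity of 12922 in labelled overexpression replicate 3 by its scanner file and of 565 in the table, against 1202 to 1851 in the controls of the table. VIT_16s0039g01170 had 4731 by the scanner file and 70.8 in the table, a ratio of 66.8, against 29.7 to 184 in the controls. VIT_06s0004g02620 differed the other way, with 247 by the scanner file and 584 in the table, against 1127 to 1255 in the controls. A limma fit to the table called 6 of 10 PAL probes lower at an adjusted p under 0.05, against 7.87% of its 23065 probes. These were VIT_16s0039g01100, VIT_16s0039g01130, VIT_16s0039g01280, VIT_16s0039g01360, VIT_08s0040g01710 and VIT_13s0019g04460, with adjusted p between 0.00589 and 0.0287. The same fit without that column called 0 of 10. Over all probes and in either direction, 3114 passed with the column and 94 without it. That column adds no measurement of labelled overexpression replicate 3 at these probes, so the scanner values are used for the family.

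**Figure D4:**
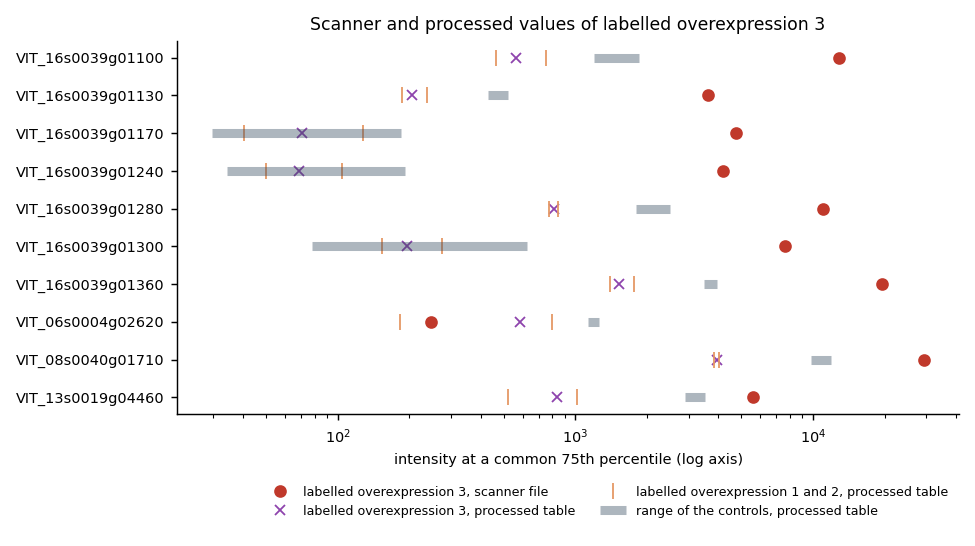
Intensity at a common 75th percentile (x axis, log scale) of each PAL probe in labelled overexpression replicate 3, by its scanner file (red circles) and in the processed table (purple crosses), with labelled overexpression replicates 1 and 2 of the table (orange ticks) and the range of the table's controls (grey bars). The crosses lie between the orange ticks at every locus, while the circles lie to the right of the control range at all loci except VIT_06s0004g02620.

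Loci of the next steps and of the branches were then set beside PAL. Their assignment is from background knowledge of grapevine gene families, with no catalogue consulted, and not from the files, so the lists are uncertain. Of 8 loci taken as cinnamate 4-hydroxylase (3) or 4-coumarate CoA ligase (5), 7 were tested and none (0) passed in limma in either direction, with 1 lower at an unadjusted p under 0.05 and a median log2 difference of 0.34. Of these 7, 3 had a marked spot in labelled overexpression replicate 3, not used in the fit. The lowest was VIT_11s0052g01090 (4-coumarate CoA ligase), at -0.99 (SE 0.26, limma adjusted p 0.199), and the highest VIT_11s0065g00350 (cinnamate 4-hydroxylase), at 0.89 (SE 1.12, limma adjusted p 0.738). VIT_11s0065g00350 had levels of -5.49, -5.12 and -1.29 in labelled overexpression replicates 1, 2 and 3, against -5.39, -4.66 and -4.52 in the controls. Without labelled overexpression replicate 3 its difference was -0.45 (SE 0.33). It was dim, with a lowest ratio to local background of 2.10. VIT_11s0052g01090 was fitted without its marked spot in labelled overexpression replicate 3. That spot read 1.34, against 0.91, 1.06 and 0.97 in control replicates 1, 2 and 3. Labelled overexpression replicate 3 was the highest array at 3 of the 4 with 6 usable spots, against 29.1% of all such probes. Replicates 1 and 2 lay below all controls at 2 of the 6 with usable spots on the other 5 arrays, against 20.1% of all such probes.

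In labelled overexpression replicate 3 the chalcone synthase loci with usable spots (2 of 3) lay below the controls, and the stilbene synthase loci that were bright on all arrays had a median above them. All 3 loci taken as chalcone synthase, the entry to the flavonoids, were tested and none (0) passed. At an unadjusted p under 0.05, 2 were lower, and the median log2 difference was -2.73. Labelled overexpression replicates 1 and 2 lay below all controls at 3 of these 3, against 20.1% of all probes with 5 usable spots. Without labelled overexpression replicate 3 their median log2 difference was -1.91. VIT_14s0068g00930 had levels of 1.02, 2.75 and -1.24 in labelled overexpression replicates 1, 2 and 3, against 3.95, 3.75 and 3.68 in control replicates 1, 2 and 3. Like VIT_06s0004g02620 among the PAL loci, it was below the controls in every array labelled overexpression and least so in replicate 2. Within the number ranges of the stilbene synthase clusters on chromosomes 10 and 16, 36 of 49 loci were tested, 8 of them with a marked spot in labelled overexpression replicate 3, and none (0) passed, also at an unadjusted p under 0.05. Of these 36, 21 were well above background on all 6 arrays, and the others entered through 1 group alone, so no median over the 36 is given. Among the 14 of these that were well above background with usable spots on all arrays, labelled overexpression replicate 3 was the highest array at 13. That share was 29.1% over all probes with 6 usable spots, bright or not. At the 14 loci the log2 difference of that array from the control mean had a median of 7.20 and a range of -0.32 to 9.26. In labelled overexpression replicates 1 and 2 the median over these 14 loci was 0.76. At none (0) of them were both arrays below all controls, against 20.1% of all probes with 5 usable spots. Which locus of these ranges a probe reads was not examined, and all 14 were read on the same arrays.

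Loci that neighbour the PAL cluster by locus number were examined as well. They are non-members only in that the family list does not hold them. Whether any of them is itself a PAL gene was not examined. Of 38 non-member loci from VIT_16s0039g01000 to VIT_16s0039g01460, 29 were tested, 25 of them well above background on all 6 arrays, and none (0) passed in limma, with 4 higher and 0 lower at an unadjusted p under 0.05 and a median log2 difference of 0.41. Over all probes tested, 15.1% had an unadjusted p under 0.05 in either direction. The highest array was labelled overexpression replicate 3 at 12 of the 28 with 6 usable spots, against 29.1% of all such probes. Replicates 1 and 2 were below all controls at 2 of 29, against 20.1%. Among the neighbours between the first and the last PAL locus of the cluster, labelled overexpression replicate 3 was highest at 8 of 13. Highest in replicate 3 and lowest in replicates 1 and 2 was 1 of the 28 neighbours, about the share of all probes (3.67%). This was VIT_16s0039g01120, which lies between PAL loci by number and is named after its values were seen. It had levels of -0.65, -0.63 and 2.77 in labelled overexpression replicates 1, 2 and 3, against 0.49, 0.68 and 0.84 in control replicates 1, 2 and 3.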

How the data were processed

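Leaf RNA was hybridised to 1-colour (Cy3) Agilent arrays, 3 per group. Intensity values of the spots are those deposited by the authors, made with Agilent Feature Extraction 10.5.1.1 per the file headers, with background and spatial trend taken out array by array. The deposited files also hold the median intensity of spot and local background, and other marks of 0 or 1 (well above background, saturated, outlier). The deposited processed table holds intensity on a linear scale, and how it was made is not given in the sources used here. Each processed signal was divided by its array's 75th percentile and taken to log2, without outlier spots and with a minimum of 2 usable spots in each group. A probe entered the fit when every usable spot of at least 1 group was well above background, outlier spots being left aside (23752 probes). limma 3.58.1 in R 4.3.3 was used with no covariate, with Benjamini-Hochberg adjustment over all of them and a threshold of 0.05. The script was tested on simulated data. No PAL spot was saturated (0), and PAL spots were at least 2.93 times their local background. The number of arrays limits the precision.

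All probes of the listed loci are reported. From the other lists, at most the highest and the lowest locus, and the loci most like the PAL mean over the 6 arrays, were to be named. VIT_14s0068g00930 is the lowest chalcone synthase locus by this rule. The members and lists were chosen with earlier results of these data known. None of the locus names of the family (0) was in the reference gene table, so no coordinates, sequences or gene names were added, and leaf markers were not checked. Alternatives covered the background correction (normexp, offset 50), the scaling (quantile, median, bright probes alone), the filter on dim probes, outlier spots, the variance model, the processed table, blocks (replicate number, scan, slide) and single arrays left out.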

Additional observations from a re-analysis of the deposited data

How the results depend on the processing

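The count of 0 PAL probes past the threshold held under 12 of the 13 settings that leave out no array, and the processed table gave 6, or 0 with its column of replicate 3 of the labelled overexpression left out. Leaving out 1 array of the scanner data gave 0 to 1, the 1 being VIT_06s0004g02620 without labelled overexpression replicate 2. No member's difference changed sign under another scaling, background correction or filter. VIT_16s0039g01100 (0.22) became -0.77 with array weights, -1.29 in the processed table, -1.27 in the table with labelled overexpression replicate 3 left out, -1.37 with scan and -1.27 with slide as a block. VIT_16s0039g01130 (0.19) became -0.71, -1.19, -1.18, -1.22 and -1.18 under the same settings in turn. With scan as a block VIT_16s0039g01170 became -0.22, VIT_16s0039g01240 -0.24 and VIT_16s0039g01300 -0.062. By construction neither block uses labelled overexpression replicate 3 for the difference, and array weights gave it the lowest weight, 0.184. When each array was left out in turn, VIT_16s0039g01100 ran from -1.27 to 1.14, VIT_16s0039g01130 from -1.18 to 0.96, VIT_16s0039g01280 from -1.40 to 0.52 and VIT_08s0040g01710 from -1.43 to 0.039, the lowest of each being without labelled overexpression replicate 3. Of all probes, 19 passed with the settings used here, 0 with normexp, with no filter on dim probes or with the replicate block, and 123 with array weights. Over all probes the median log2 difference was 0.13 with normexp and 0.12 with no filter on dim probes.

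The replicate block gave 0 PAL probes past the threshold, as without it. Deviations from the group means correlated at 0.253, 0.0499 and -0.0149 for arrays of the same number and at -0.329 to 0.283 for arrays of different numbers, so the numbers do not show a pairing. The counts of 9 loci highest in labelled overexpression replicate 3 and of 7 low in replicates 1 and 2 were the same under each scaling and under normexp, alternatives chosen after seeing the data. They were also 9 and 7 without any 1 of the other arrays, which says nothing of stability, since leaving out an array can only raise these counts.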

Other observations

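The 2 non-member loci whose profile over the 6 arrays was most like the mean of 9 PAL probes, out of 17729 candidates, were VIT_02s0025g04230 (Pearson's r 0.995, and 0.971 without labelled overexpression replicate 3) and VIT_03s0088g00270 (0.992, and 0.980 without it). VIT_02s0025g04230 had levels of -1.47, -1.57 and 1.56 in labelled overexpression replicates 1, 2 and 3, against -0.39, -1.16 and -1.26 in control replicates 1, 2 and 3. Of all candidates 2.92% had an r over 0.9, and with 6 arrays, of which 1 lies far from the rest, these values describe the arrays only.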
